A study of Mus musculus with 7 samples.

Results

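The interleukin-1 family genes described here are 10 transcripts of the mature adipocyte RNA-Seq, chosen by name as the ligands, receptors, antagonist and decoys of interleukin-1 (IL-1), IL-18 and IL-33. All 10 were found among the 57010 gene identifiers of the count table, and all 10 were among the 17039 genes with enough counts to be tested. They comprised 4 agonist ligands (Il1a, Il1b, Il18 and Il33), 3 signalling receptor chains (Il1r1, Il1rap and Il1rl1) and 3 inhibitors (the receptor antagonist Il1rn, the decoy receptor Il1r2 and the IL-18 binding protein Il18bp). There were 3 libraries of FFA2 fl/fl mice (floxed controls) and 4 of their Adipoq-F2-KO littermates, all male, untreated and kept on Teklad LM-485 chow (the SC diet) to 20 weeks of age by the sample labels. Both genotypes carried the floxed FFA2 allele, and only Adipoq-F2-KO mice carried Cre recombinase under the adiponectin promoter, which is active in adipocytes, so other cells of the fat pad keep FFA2. The study's methods give a later age than the labels for its SC diet cohort. Mature adipocytes were released from perigonadal fat with collagenase, and the labels do not say that RNA of several mice was pooled.

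IL-1α and IL-1β bind the receptor IL1R1, which then recruits the accessory chain IL1RAP and signals through MyD88 to NF-kB. IL1RN occupies IL1R1 without recruiting IL1RAP, and IL1R2 binds the ligand but lacks a signalling domain. IL-33 signals through ST2 (Il1rl1) and the same IL1RAP chain, IL-18 is held back by IL18BP, and in adipose tissue the family is known for its links to insulin resistance (IL-1β) and to the upkeep of ILC2 and regulatory T cells (IL-33).

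Total counts lay between 30478997 and 39992605 per library, and a count of 0 in a library allows up to 0.150 to 0.197 CPM (the share of a library's counts, scaled to the usual common total), taken as 3 read pairs or 6 counts because both mates of a pair appear to have been counted. These floors cover counting error alone. Values below are CPM after TMM normalization, and the fold changes are log2 of Adipoq-F2-KO over FFA2 fl/fl with their standard error (SE) from edgeR's quasi-likelihood fit to all tested genes. The targeted gene, Ffar2, had 1404, 1346 and 1094 counts in FFA2 fl/fl and 67, 38, 48 and 76 counts in Adipoq-F2-KO libraries. Mitochondrial genes took 4.41% to 5.77% of counts in FFA2 fl/fl and 6.61% to 10.3% in Adipoq-F2-KO libraries, without overlap. FFA2 fl/fl replicate 1 stood apart in keratins (Krt8 at 31.1 CPM and Krt19 at 18.7 CPM), and Adipoq-F2-KO replicate 2 in germ cell transcripts. Of the other mesothelial markers, Krt18 and Upk1b were also highest among the controls in that FFA2 fl/fl library. Upk3b, Wt1 and Lrrn4 were higher in another control. The labels number the libraries within a genotype without saying that each is a separate animal, so p-values measure only the spread between these 7 samples.

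The promoters shown are those of the 4 members whose libraries did not overlap between genotypes, so that the sequence beside each transcript start can be read with its values. They are the RefSeq sequences of build GRCm38.p6, from 250 bases before the start to 50 after it, 5′ to 3′ on the plus strand. They lie at chr2:24336610-24336909 (Il1rn, the most upstream of its listed starts), chr19:29924863-29925162 (Il33, likewise), chr16:26581455-26581754 (Il1rap) and chr9:50554450-50554749 (Il18). Capitals mark matches to the motifs searched.
Il1rn: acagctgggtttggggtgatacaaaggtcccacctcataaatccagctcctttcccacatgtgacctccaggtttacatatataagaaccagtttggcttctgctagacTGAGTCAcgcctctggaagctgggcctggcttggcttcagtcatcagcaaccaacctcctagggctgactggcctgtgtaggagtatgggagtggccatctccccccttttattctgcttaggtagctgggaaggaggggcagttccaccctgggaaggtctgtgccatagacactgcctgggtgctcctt
Il33: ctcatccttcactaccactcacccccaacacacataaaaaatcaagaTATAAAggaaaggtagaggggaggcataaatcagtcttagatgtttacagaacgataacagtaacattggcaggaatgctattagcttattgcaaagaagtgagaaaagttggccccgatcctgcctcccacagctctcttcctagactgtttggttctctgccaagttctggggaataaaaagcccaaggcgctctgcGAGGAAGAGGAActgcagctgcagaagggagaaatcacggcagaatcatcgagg
Il1rap: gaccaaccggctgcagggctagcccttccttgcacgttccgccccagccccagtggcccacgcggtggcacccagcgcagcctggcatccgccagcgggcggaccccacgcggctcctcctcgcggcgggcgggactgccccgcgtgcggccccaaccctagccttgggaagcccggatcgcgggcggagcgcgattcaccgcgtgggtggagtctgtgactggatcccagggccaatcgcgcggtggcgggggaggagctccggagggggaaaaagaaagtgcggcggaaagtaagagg
Il18: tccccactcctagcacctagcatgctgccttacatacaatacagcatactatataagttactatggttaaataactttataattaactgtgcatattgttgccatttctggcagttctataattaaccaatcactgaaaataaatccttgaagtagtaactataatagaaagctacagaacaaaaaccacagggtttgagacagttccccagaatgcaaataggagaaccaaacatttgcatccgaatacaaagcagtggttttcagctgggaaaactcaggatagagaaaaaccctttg

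The motifs were the AP-1 site TGANTCA, the C/EBP site TTGCNNAA, the PU.1 core GAGGAA and the NF-kB site by name on both strands, and the TATA box TATAAA on the strand of the gene. The Il1rn window held an AP-1 match beginning 141 bases before the start. The Il33 window held a TATA box letter match 203 bases before the start and a pair of adjoining PU.1 matches, which begin 4 bases before and 2 bases after it. The other listed Il33 window, not shown, held a TATA box match 29 bases and a C/EBP match 85 bases before its own start. Which start was used in these adipocytes was not tested. No match lay in the Il1rap and Il18 windows. Of the 15 listed promoter windows of the 10 members, 2 held AP-1 matches, 4 C/EBP, 3 PU.1, 1 NF-kB (Il1r1) and 4 the TATA box (from 3 members). Of 32851 mouse promoter windows of the same length, 7.81% held the AP-1 letters, 10.8% C/EBP, 28.3% PU.1, 4.51% NF-kB and 8.32% the TATA box, and a match describes letters and not a bound site.

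In Adipoq-F2-KO adipocytes, 8 of the 10 members were higher by fold change and 2 were lower, and none passed an adjusted p of 0.05 in edgeR's quasi-likelihood test. Across all tested genes 173 passed, or 1.02%, of which 136 were higher and 37 lower. At an unadjusted p under 0.05 in the same fit, 6 members were higher (Il1a, Il1b, Il1rn, Il1r1, Il1rap and Il33) and 0 lower, where 10.5% of all tested genes were higher. Values of both genotypes stayed apart for 3 members that were higher (Il1rn, Il1rap and Il33), against 8.86% of all tested genes, and for 1 that was lower (Il18), against 8.72%. The median log2 fold change of the members was 0.82, beside 0.00 over all tested genes, of which 50.4% had a positive value. Exact two-sided permutation tests of the 10 single means gave p = 0.0286 for Il33 and Il18, the smallest that 3 libraries against 4 can give. The same exact test gave 0.0571 for Il1rn and Il1rap, 0.0857 for Il1b and Il1rl1, 0.114 for Il1a, 0.143 for Il1r1, 0.857 for Il18bp and 0.886 for Il1r2. DESeq2, the tool named by the study, called Il1rn (adjusted p = 0.0117) and Il33 (adjusted p = 0.0421) at its own filter, where 3.56% of tested genes were called higher. Without a filter on low counts, edgeR called Il1rn (adjusted p = 0.00403), Il1b (adjusted p = 0.0163) and Il1r1 (adjusted p = 3.8e-07), and 3.76% of all genes were called higher. Il1r1 was called in only 1 of 13 alternatives. Its adjusted p was 0.122 in the main edgeR fit, 0.174 with DESeq2 and 0.133 with limma voom, and its libraries overlapped.

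**Figure D1:**
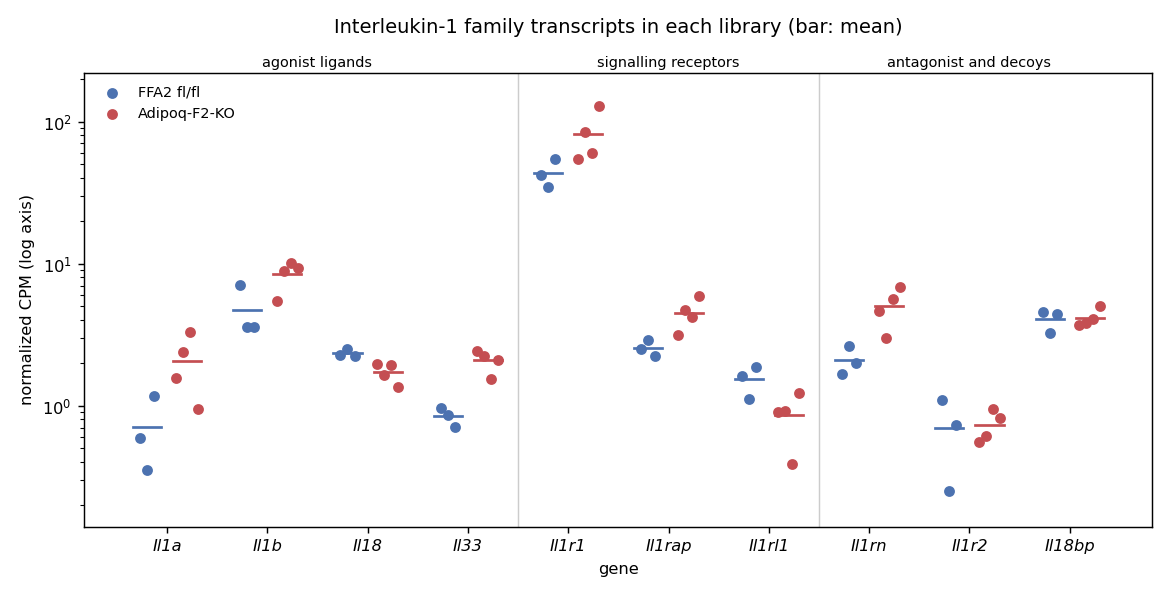
Normalized CPM of the 10 members on a log axis, 1 point per library (3 FFA2 fl/fl, 4 Adipoq-F2-KO) and a bar at each mean. The points of the genotypes separate for Il33, Il1rap and Il1rn, which were higher in Adipoq-F2-KO, and for Il18, which was lower, while those of Il1r2 and Il18bp lie in the same range.

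Among the ligands, Il33, Il1a and Il1b were higher in Adipoq-F2-KO adipocytes at an unadjusted p under 0.05, and Il18 was lower in each of the 4 libraries without passing the test. Il33 (ENSMUSG00000024810), the nuclear alarmin, lies in the table's own coordinates on chromosome 19 from 29902514 to 29938118 on the plus strand. Its levels were 0.961, 0.857 and 0.703 CPM in FFA2 fl/fl and 2.41, 2.25, 1.55 and 2.10 CPM in Adipoq-F2-KO libraries. The lowest Adipoq-F2-KO library was above the highest control. The means were 0.840 ± 0.130 (SD, n = 3) and 2.08 ± 0.374 CPM (SD, n = 4). Its log2 fold change was 1.30 (SE 0.36, adjusted p = 0.106 by edgeR), and its range was 1.20 to 1.42 when single libraries were left out.

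Il1a (ENSMUSG00000027399), an alarmin made by many cell types, lies beside Il1b on chromosome 2, from 129141530 to 129151892 on the minus strand. It was measured at 0.587, 0.353 and 1.17 CPM in FFA2 fl/fl and at 1.56, 2.37, 3.32 and 0.950 CPM in Adipoq-F2-KO libraries. Adipoq-F2-KO replicate 4 fell within the control range and the other 3 were above it. The means were 0.704 ± 0.422 (SD, n = 3) and 2.05 ± 1.03 CPM (SD, n = 4). The log2 fold change of 1.55 was the largest of the members and had the widest error among those at an unadjusted p under 0.05 (SE 0.55, adjusted p = 0.179 by edgeR). It ranged from 1.21 to 2.14 when single libraries were left out, with the highest value without FFA2 fl/fl replicate 3.

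Il1b (ENSMUSG00000027398), the secreted cytokine that caspase-1 activates, spans 129206490 to 129213059 of chromosome 2 on the minus strand. The libraries held 7.08, 3.58 and 3.57 CPM in FFA2 fl/fl and 5.47, 8.81, 10.01 and 9.36 CPM in Adipoq-F2-KO libraries. The overlap came from FFA2 fl/fl replicate 1, which was above Adipoq-F2-KO replicate 1. The means were 4.74 ± 2.02 (SD, n = 3) and 8.41 ± 2.02 CPM (SD, n = 4). Its log2 fold change was 0.82 (SE 0.29, adjusted p = 0.174 by edgeR) and was lowered by FFA2 fl/fl replicate 1. Without that library it was 1.23, the highest of a range from 0.65 when single libraries were left out.

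Il18 (ENSMUSG00000039217), a ligand that is stored as a precursor and also cut by caspase-1, spans 50466127 to 50493140 of chromosome 9 on the plus strand. It was measured at 2.27, 2.52 and 2.23 CPM in FFA2 fl/fl and at 1.96, 1.64, 1.94 and 1.36 CPM in Adipoq-F2-KO libraries. Every Adipoq-F2-KO library was below the lowest control, by a small step. The means were 2.34 ± 0.159 (SD, n = 3) and 1.72 ± 0.283 CPM (SD, n = 4). In the fit over all genes its log2 fold change was -0.44 (SE 0.30, adjusted p = 0.469 by edgeR), with a 95% interval from -1.09 to 0.21.

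The receptor chains of IL-1 were both higher in Adipoq-F2-KO at an unadjusted p under 0.05, whereas the mean of the IL-33 receptor was lower. Il1r1 (ENSMUSG00000026072), the signalling receptor of IL-1, had the highest level of the 10 genes per length and spans 40264240 to 40356417 of chromosome 1 on the plus strand. Its levels were 41.9, 34.5 and 54.7 CPM in FFA2 fl/fl and 54.5, 84.6, 59.8 and 128 CPM in Adipoq-F2-KO libraries. FFA2 fl/fl replicate 3 was barely above Adipoq-F2-KO replicate 1, and replicate 4 of Adipoq-F2-KO was far above the rest. The means were 43.7 ± 10.2 (SD, n = 3) and 81.7 ± 33.5 CPM (SD, n = 4). The log2 fold change was 0.90 (SE 0.27, adjusted p = 0.122 by edgeR), with a range of 0.60 to 1.11 when single libraries were left out.

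Il1rap (ENSMUSG00000022514), the chain shared by the IL-1 and IL-33 receptors, spans 26400454 to 26548867 of chromosome 16 on the plus strand. It was measured at 2.48, 2.90 and 2.23 CPM in FFA2 fl/fl and at 3.16, 4.74, 4.18 and 5.90 CPM in Adipoq-F2-KO libraries. The groups did not overlap, and replicate 1 of Adipoq-F2-KO lay closest to the controls. The means were 2.54 ± 0.339 (SD, n = 3) and 4.49 ± 1.14 CPM (SD, n = 4). Its log2 fold change was 0.82 (SE 0.26, adjusted p = 0.145 by edgeR).

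Il1rl1 (ENSMUSG00000026069) encodes ST2, both the membrane receptor of IL-33 and a soluble form that acts as a decoy, and the gene's counts sum these forms. It spans 40468730 to 40504575 of chromosome 1 on the plus strand. Values of 1.60, 1.11 and 1.87 CPM were found in FFA2 fl/fl and 0.903, 0.911, 0.387 and 1.22 CPM in Adipoq-F2-KO libraries. Of the 4 Adipoq-F2-KO libraries, 3 were below every control and replicate 4 was above the lowest control. The means were 1.53 ± 0.388 (SD, n = 3) and 0.856 ± 0.346 CPM (SD, n = 4). The log2 fold change of -0.84 (SE 0.47, adjusted p = 0.383 by edgeR) had a 95% interval from -1.88 to 0.20.

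Of the inhibitors, the receptor antagonist had its highest values in the 4 Adipoq-F2-KO libraries, while both decoys lay near their control levels. Il1rn (ENSMUSG00000026981) spans 24226865 to 24241506 of chromosome 2 on the plus strand. The antagonist reached 1.66, 2.62 and 1.99 CPM in FFA2 fl/fl and 4.62, 2.98, 5.59 and 6.78 CPM in Adipoq-F2-KO libraries. Replicate 2 was the lowest of the Adipoq-F2-KO libraries and still above the highest control. The means were 2.09 ± 0.490 (SD, n = 3) and 4.99 ± 1.61 CPM (SD, n = 4). The log2 fold change was 1.25 (SE 0.31), with the lowest adjusted p of the members (0.0776 by edgeR), with a range of 1.07 to 1.45 when single libraries were left out.

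Il1r2 (ENSMUSG00000026073), the decoy that binds IL-1 without signalling, spans 40113239 to 40164391 of chromosome 1 on the plus strand. The decoy was measured at 1.09, 0.252 and 0.732 CPM in FFA2 fl/fl and at 0.552, 0.608, 0.940 and 0.814 CPM in Adipoq-F2-KO libraries. All 4 Adipoq-F2-KO libraries lay within the control range. The log2 fold change was 0.07 (SE 0.61, adjusted p = 0.969 by edgeR), and its 95% interval from -1.26 to 1.41 holds the values of Il1rn and Il33, so these counts limit what can be said of it. Its sign turned without FFA2 fl/fl replicate 2 (-0.33) or Adipoq-F2-KO replicate 3 (-0.08).

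Il18bp (ENSMUSG00000070427), the secreted protein that neutralises IL-18, spans 101664092 to 101667897 of chromosome 7 on the minus strand. It was measured at 4.54, 3.23 and 4.39 CPM in FFA2 fl/fl and at 3.71, 3.83, 4.07 and 5.02 CPM in Adipoq-F2-KO libraries. The ranges overlapped for all but replicate 4 of Adipoq-F2-KO, which was above the highest control. The means were 4.05 ± 0.720 (SD, n = 3) and 4.16 ± 0.594 CPM (SD, n = 4). The log2 fold change was 0.04 (SE 0.22, adjusted p = 0.957 by edgeR), and the 95% interval from -0.46 to 0.53 is the narrowest of the 10. Its exons share 80 bases with those of Numa1 on the opposite strand, which had 49174 counts over the 7 libraries, and the strand setting of the counting is not given in the sources used here. Reads of these genes may therefore be mixed in that stretch. Antisense genes also share 222 exon bases with Il1a (Gm14023, 59 counts over the 7 libraries), 25 with Il1b (Il1bos, 10 counts) and 785 with Il1rap (Gm20319, 0 counts).

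**Figure D2:**
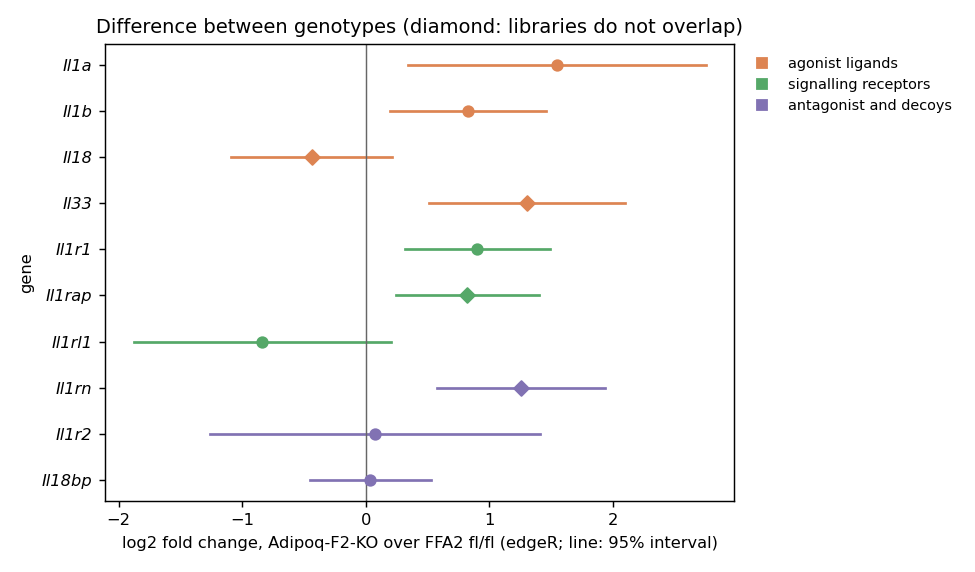
Log2 fold change (Adipoq-F2-KO over FFA2 fl/fl, x axis) of each member with its 95% interval from edgeR, coloured by role, with diamonds for genes whose libraries do not overlap between genotypes. The intervals of 6 genes lie above 0, and those of Il18, Il1rl1, Il1r2 and Il18bp include 0.

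Levels of different genes were compared as CPM per kilobase of exon. In FFA2 fl/fl adipocytes Il1r1 was highest at 6.87 ± 1.60 (SD, n = 3), followed by Il1b at 2.49 ± 1.06, Il18 at 2.27 ± 0.154 and Il18bp at 1.34 ± 0.238 CPM per kilobase. The other 6 members had means between 0.222 (Il1rl1) and 0.377 (Il1rn) CPM per kilobase, and each overlapped its neighbours in this order. Il1b and Il18 overlapped too. In Adipoq-F2-KO adipocytes the order began with Il1r1 at 12.8 ± 5.26 (SD, n = 4), Il1b at 4.41 ± 1.06 and Il18 at 1.67 ± 0.275 CPM per kilobase, and neither Il1r1 and Il1b nor Il1b and Il18 overlapped. From Il18 down to Il33 (0.720 ± 0.129 CPM per kilobase) each gene overlapped its neighbour, and Il1rl1 was last at 0.124 ± 0.0501 CPM per kilobase, below the range of Il1r2. The ranges of Il1b and Il18 thus overlapped in the controls and not in Adipoq-F2-KO.

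Summed by role on the same scale, the 4 agonists came to 6.54, 4.80 and 4.87 CPM per kilobase in FFA2 fl/fl and 6.39, 8.19, 9.35 and 7.43 in Adipoq-F2-KO libraries. The 3 signalling receptors came to 7.04, 5.84 and 9.06 CPM per kilobase in FFA2 fl/fl and 8.98, 13.8, 9.82 and 20.8 in Adipoq-F2-KO libraries. The antagonist and decoys came to 2.37, 1.67 and 2.20 CPM per kilobase in FFA2 fl/fl and 2.35, 2.12, 2.85 and 3.31 in Adipoq-F2-KO libraries. Agonists and receptors overlapped only through 1 library on each side, and the inhibitors overlapped in 2 Adipoq-F2-KO libraries. The agonist sum is mostly Il1b and Il18, and the receptor sum mostly Il1r1. These sums were not tested.

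Partners were compared within each library as the log2 ratio of counts plus 1 in 4 pairs, which does not depend on the scaling between libraries. An inhibitor was set against its agonist in 2 of the pairs (Il1rn over Il1b and Il18bp over Il18), a decoy against the signalling receptor in 1 (Il1r2 over Il1r1), and a receptor that also has a soluble form against its ligand in 1 (Il1rl1 over Il33). Gene length shifts the level of each ratio and not its difference between genotypes. The ratio of ST2 to its ligand, Il1rl1 over Il33, was 0.72, 0.36 and 1.38 in FFA2 fl/fl and -1.39, -1.27, -1.93 and -0.77 in Adipoq-F2-KO libraries. Every Adipoq-F2-KO library was below every control. Per kilobase, Il1rl1 was above Il33 in 1 of 3 FFA2 fl/fl and 0 of 4 Adipoq-F2-KO libraries. The means were 0.82 ± 0.52 (SD, n = 3) and -1.34 ± 0.48 (SD, n = 4), or 1.77 and 0.395 receptor counts per ligand count. The difference of -2.16 reached the smallest p of the exact two-sided permutation test (p = 0.0286, or 0.114 after Benjamini-Hochberg adjustment over the 4 pairs, which the design cannot bring lower for a single pair). Leaving out single libraries gave differences from -2.39 to -1.88.

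The antagonist did not shift against IL-1β in a way that exceeded the spread between libraries. The log2 ratio of Il1rn over Il1b was -2.08, -0.45 and -0.83 in FFA2 fl/fl and -0.24, -1.56, -0.84 and -0.46 in Adipoq-F2-KO libraries. The genotypes overlapped, with FFA2 fl/fl replicate 1 below every Adipoq-F2-KO library and Adipoq-F2-KO replicate 1 above every control, and the means of both genes were higher in Adipoq-F2-KO. The means were -1.12 ± 0.85 (SD, n = 3) and -0.78 ± 0.58 (SD, n = 4), a difference of 0.34 (exact permutation test, p = 0.571, adjusted 0.571), and its sign turned without FFA2 fl/fl replicate 1 (-0.14, the low end of a range to 0.68).

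For the decoy receptor, Il1r2 over Il1r1 was -5.23, -6.96 and -6.17 in FFA2 fl/fl and -6.56, -7.05, -5.95 and -7.24 in Adipoq-F2-KO libraries on the log2 scale. The difference of -0.58 was within the spread (exact permutation test, p = 0.343, adjusted 0.457), and Il1r2 had about 0.0144 and 0.00961 counts per Il1r1 count in FFA2 fl/fl and Adipoq-F2-KO. For IL-18, Il18bp over Il18 was 0.99, 0.35 and 0.97 in FFA2 fl/fl and 0.92, 1.21, 1.06 and 1.86 in Adipoq-F2-KO libraries. In this ratio 3 of the 4 Adipoq-F2-KO libraries were above every control. Per kilobase, the binding protein was above the ligand in 1 of the 7 libraries, Adipoq-F2-KO replicate 4. The difference of 0.49 did not reach the test's threshold (exact permutation test, p = 0.171, adjusted 0.343).

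**Figure D3:**
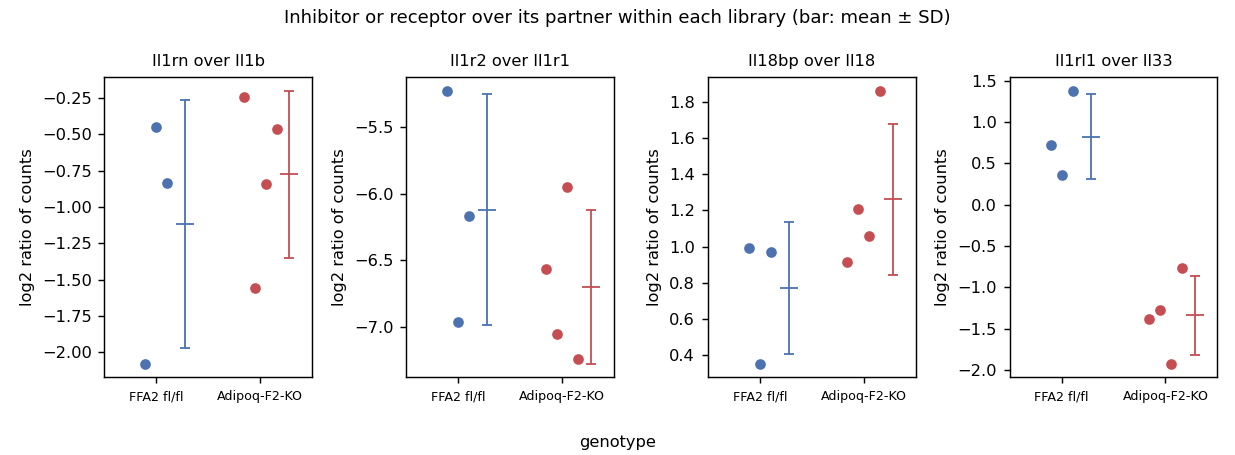
Log2 ratio of an inhibitor or receptor to its partner within each library, for 4 pairs, with the mean and SD of each genotype beside the points. In counts not corrected for gene length, Il1rl1 over Il33 lies above 0 in the 3 FFA2 fl/fl libraries and below 0 in the 4 Adipoq-F2-KO libraries, and the other pairs overlap.

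The other ligands and receptors of the family were scarce. Of 11 listed, 3 could be tested and 0 were called, and 6 had 0 counts in all libraries (Il36a, Il36b, Il36rn, Il1f10, Il1rapl1 and Il1rapl2). Sigirr, an inhibitory member of the receptor family, was measured at 4.00 ± 0.544 CPM in FFA2 fl/fl (SD, n = 3) and 3.91 ± 0.795 in Adipoq-F2-KO (SD, n = 4), and the IL-36 receptor Il1rl2 at 1.80 ± 0.711 and 2.85 ± 1.80 CPM. Il18r1, the ligand-binding chain for IL-18, had means of 0.228 and 0.266 CPM, close to the floor of a single library. The IL-18 ligand and binding protein were thus measured beside a receptor near the detection limit.

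Downstream of the receptors, adaptor and kinase transcripts moved in both directions without passing the test, and some IL-1 responsive genes rose in Adipoq-F2-KO. Of 16 receptor-proximal signalling genes, 0 were called, 9 had a positive and 7 a negative fold change, and the median was 0.03. The most abundant of them, the kinase Irak1 and the TAK1 partner Tab2, had log2 fold changes of -0.10 and 0.21. Values of the genotypes did not overlap for 1 higher and 3 lower genes, where 8.86% and 8.72% of all tested genes did so. The higher one was Map3k8, a kinase upstream of ERK, at a log2 fold change of 0.65 (SE 0.15, adjusted p = 0.0588 by edgeR). The lower ones were Tab1, Tab3 and Irak4 at -0.42, -0.35 and -0.14 (adjusted p = 0.239, 0.184 and 0.563 by edgeR). All were named after their values were seen. With DESeq2, limma voom, no count filter, the replicate block or FFA2 fl/fl replicate 2 left out, 1 gene of this list was called. Among 17 tested genes of the inflammasome and of cytokine processing, 2 rose and 0 fell, beside 0.798% of all tested genes called higher. In this list 12 had a positive and 5 a negative fold change, and the median was 0.44. Nlrp3, the sensor that activates caspase-1, rose from 8.61 ± 1.34 (SD, n = 3) to 19 ± 4.47 CPM (SD, n = 4), or by 1.14 on the log2 scale (SE 0.19, adjusted p = 0.0332 by edgeR). Casp4 (caspase-11), the sensor of intracellular lipopolysaccharide, rose from 27.3 ± 3.93 to 52.7 ± 11.5 CPM, or by 0.95 on the log2 scale (SE 0.17, adjusted p = 0.0383 by edgeR). Casp1 itself was measured at 5.25 ± 0.452 and 5.89 ± 2.00 CPM, and the abundant Capn2 and Nek7 had log2 fold changes of -0.04 and -0.11. Both calls were lost in edgeR without any 1 of FFA2 fl/fl replicates 1, 2 and 3 or Adipoq-F2-KO replicates 2 and 3 (0 called in each).

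Of 21 tested genes that IL-1 is known to induce, 6 rose, 0 fell and 15 did not pass the test, beside the same 0.798% of all tested genes called higher. Fold changes were positive for 19 and negative for 2, and the median was 0.70. DESeq2 called 10 genes of the list, where 3.56% of its tested genes were called higher. Without a count filter edgeR called 12, where 3.76% of all genes were called higher. The monocyte chemokine Ccl2 rose from 167 ± 22 (SD, n = 3) to 367 ± 52.6 CPM (SD, n = 4), or by 1.14 on the log2 scale (adjusted p = 0.0178 by edgeR). The cytokine Il6 rose from 24.2 ± 6.19 to 67.2 ± 19.1 CPM, or by 1.47 on the log2 scale (adjusted p = 0.0332 by edgeR). The adhesion molecule Icam1, the NF-kB cofactor Bcl3 and the acute phase genes Lcn2 and Saa3 rose by log2 fold changes of 1.16, 0.87, 1.26 and 0.64. The most abundant genes of the list did not pass the test: the chemokine Cxcl1 was at 911 ± 198 and 1184 ± 218 CPM, and the NF-kB inhibitor Tnfaip3 at 611 ± 226 and 705 ± 170 CPM. Many signals other than IL-1 induce these genes. The members and all lists were chosen with earlier results of these data known. The study had also named Ccl2 and Il6 among its most upregulated adipocyte genes. The shares of called genes in the lists are therefore no independent evidence. The number called in this list fell to 0 without FFA2 fl/fl replicate 1 or replicate 3 and to 1 without Adipoq-F2-KO replicate 2 or replicate 3.

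**Figure D4:**
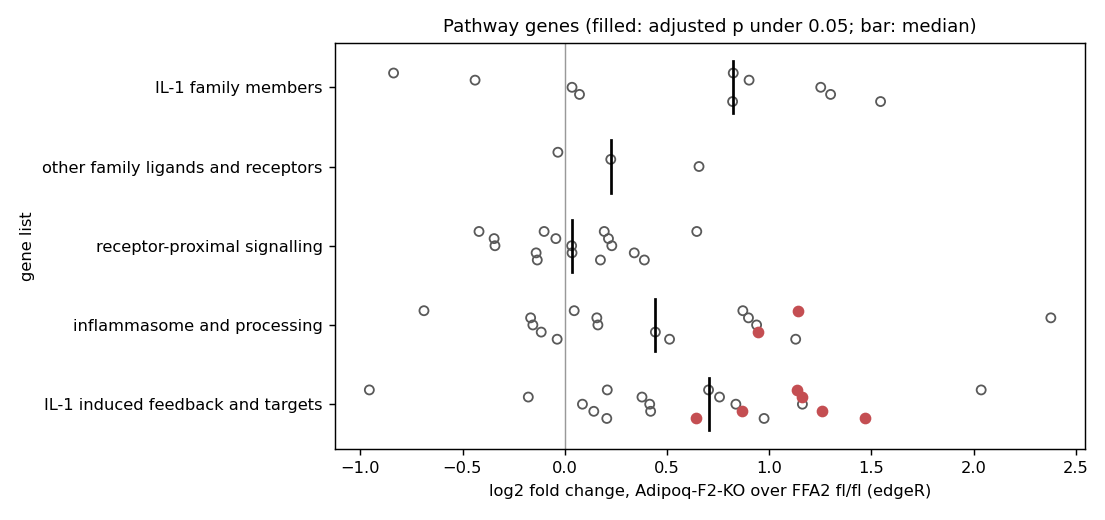
Log2 fold change (x axis) of the 10 members and of the tested genes of the 4 pathway lists, 1 point per gene, filled where the edgeR adjusted p was under 0.05, with a bar at the median. None of the members is filled, 2 inflammasome and 6 IL-1 induced genes are, and the median is near 0 for receptor-proximal signalling.

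Transcripts of cells other than adipocytes moved with the genotype as well, and in bulk RNA fewer cells of a type and less RNA per cell cannot be told apart. Adipocyte markers (Cfd, Fabp4 and Plin4 the most abundant of 12) summed to 48688 to 54085 CPM in FFA2 fl/fl and to 36654 to 48337 CPM in Adipoq-F2-KO libraries. Of the 12, 11 were lower and 1 was higher (Pparg, log2 fold change 0.27), with 0 called. The abundant Fabp4 was nearly unchanged (log2 fold change -0.006). Beside the IL-1 ligands, macrophage and monocyte markers (Lyz2, Mertk and Csf1r the most abundant) were higher for 19 of 23 tested genes. Of these 19, 3 rose by edgeR (Lyz2, Cd68 and Clec4e), beside 0.798% of all tested genes called higher. The marker lists too were chosen with earlier results of these data known. The other 4 were lower, including the abundant Mertk (log2 fold change -0.42). Macrophage and monocyte markers summed to 500 to 560 CPM in FFA2 fl/fl and 671 to 756 CPM in Adipoq-F2-KO libraries. Beside Il33 and Il1r1, endothelial markers (Cdh5, Pecam1 and Cldn5) were higher for 12 of 12 with 0 called, at sums of 1341 to 1758 and 1840 to 2951 CPM. Fibroblast progenitor markers (Col15a1, Col3a1 and Dcn) were higher for 12 of 14, at sums of 2105 to 2449 and 2627 to 2766 CPM. Of these, 1 was called (Icam1, which is also on the IL-1 induced list), beside the same 0.798%. The 2 lower genes included Col15a1, the most abundant of the list (log2 fold change -0.15). Adipoq-F2-KO replicate 4 had the highest Il1r1 value, the lowest adipocyte sum and the highest endothelial, macrophage and monocyte, and fibroblast progenitor sums. The part of these cells in the members' differences was not tested.

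Beside Il1rl1, markers of mast cells, ILC2 and T cells (Rora, Kit and Il2ra the most abundant) were higher for 5 and lower for 7 of 12 tested genes, with 0 called. Their sums were 74.1 to 79.5 CPM in FFA2 fl/fl and 70.0 to 107 CPM in Adipoq-F2-KO libraries. Most of each sum was Rora (means of 52.5 CPM in FFA2 fl/fl and 53.3 CPM in Adipoq-F2-KO) and Kit (10.8 and 18.1 CPM). The mast cell genes Cpa3 (0.593 and 0.869 CPM), Mcpt4 (0.914 and 0.703 CPM) and Tpsb2 (1.00 and 0.493 CPM) were low. The mast cell receptor Fcer1a was at 0 throughout. Neutrophils, which carry much of the body's Il1r2, were represented by 2 tested markers of 11 (S100a8, Csf3r and the untested Retnlg were the most abundant), at sums of 2.65 to 4.31 and 2.89 to 5.14 CPM, with Ly6g at 0. Mesothelial markers (Krt8, Krt19 and Wt1 the most abundant) summed to 12.8 to 58.7 CPM in FFA2 fl/fl and 12.1 to 16.6 CPM in Adipoq-F2-KO libraries. Of 9 tested, 4 were higher and 5 lower, with 0 called. The highest sum was mostly Krt8 and Krt19 of FFA2 fl/fl replicate 1. Wt1 was higher in Adipoq-F2-KO (log2 fold change 0.73, adjusted p = 0.227 by edgeR). Germ cell and epididymal markers (Prm2, Tnp2 and Smcp the most abundant) summed to 0 to 8.04 and 3.31 to 157 CPM, with 0 of 6 called and Lcn5 and Defb21 at 0. Without FFA2 fl/fl replicate 1, the library high in keratins, the log2 fold changes of Il33, Il1rn, Il1rap and Il18 were 1.41, 1.11, 0.80 and -0.46. Without Adipoq-F2-KO replicate 2, the library high in germ cell transcripts, they were 1.27, 1.44, 0.80 and -0.41.

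The genes nearest to a member in pattern were found as those with the smallest root mean square difference of log2(CPM + 0.5), centred over the 7 libraries. For Il1b they were Timp1 (0.13) and Fjx1 (0.16), and for Il1a Zwilch (0.30) and Osm (0.30). For Il33 they were Htr2a (0.12) and Gm6335 (0.12). For the receptors, Gpc3 (0.13) and 2810454H06Rik (0.16) were nearest to Il1r1, Frmd6 (0.07) and Ilk (0.08) to Il1rap, and Egf (0.11) and Gm7390 (0.11) to Il1rl1. For the antagonist Il1rn they were Tfpi2 (0.11) and Dusp2 (0.13). Il18 lay nearest to Rrp7a (0.03) and Phb2 (0.04), Il18bp to Pld1 (0.06) and Kcnk5 (0.06), and Il1r2 to Gm6444 (0.12) and Gm13077 (0.14). These values describe 7 libraries and carry no test.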

How the data were processed

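The RNA was polyadenylated RNA of isolated mature adipocytes, made into stranded libraries and sequenced in pairs. The authors used Trimmomatic for trimming, STAR for alignment and featureCounts to make counts per gene, and the deposited counts are whole numbers without normalization. The submitters' processing notes name GRCm38, but the table's gene coordinates are not those of GRCm38, so its build is not given in the sources used here and coordinates are the table's own. Of 57010 identifiers, 52029 matched a symbol in GENCODE M21. The 10 member genes and all lists were chosen with earlier results of these data known.

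Libraries were grouped by the genotype in their titles. Genes passing filterByExpr were TMM-normalized and tested two-sided with edgeR 4.0.16 (quasi-likelihood F test, genotype as the only term, R 4.3.3), with Benjamini-Hochberg adjustment over 17039 genes and a threshold of 0.05. DESeq2 1.42.0, limma 3.58.1 voom, another scaling, no count filter and a replicate block were alternatives. Others left out mitochondrial genes with the largest gene, or each library in turn. Single values and the 4 ratios were compared by exact permutation tests. Replicate pairs differed beyond sampling noise (ratio of chi-square to degrees of freedom, 41.5 to 165), so none was merged. TMM factors lay between 0.968 and 1.02, and between 85.5% and 88.8% of counts from 1 to 49 were even. Scripts were tested on simulated data. Named genes were all members, Ffar2, called genes and the 2 most abundant genes of each pathway list, and the 3 most abundant genes of each marker list with any at 0 among the first 3 listed. Also named, after their values were seen, were the family members at 0, Casp1, Il18r1, Map3k8, Tab1, Tab3, Irak4 and called marker genes. So were other marker genes at 0, and Pparg, Krt18, Upk1b, Upk3b, Lrrn4, Cpa3, Mcpt4 and Tpsb2.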

Additional observations from a re-analysis of the deposited data

Results flagged for a closer look

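The summed normalized CPM of the inflammasome and processing genes had 1 library far from the others of its genotype. In Adipoq-F2-KO replicate 3 the sum was 600.5 CPM, where the other 3 Adipoq-F2-KO libraries lay between 553.9 and 561.2 CPM, and this gap was 0.845 of the whole range of the group, above Dixon's 95% limit for 4 samples. Of 30 quantities checked this way, 1 passed, and chance alone passes about 1 in 20.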

How the results depend on the processing

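The 10 members kept the sign of their log2 fold change under 13 alternatives, except Il1r2 (-0.33 without FFA2 fl/fl replicate 2 and -0.08 without Adipoq-F2-KO replicate 3, over a range of -0.33 to 0.57) and Il18bp (-0.054 with the replicate block, -0.11 without FFA2 fl/fl replicate 2 and -0.07 without Adipoq-F2-KO replicate 4, over a range of -0.11 to 0.12). The number of members called was 0 by edgeR's main test, 2 with DESeq2, 3 without a filter on low counts and 0 under every other alternative. Over all genes, 173 were called, against 869 with DESeq2, 1403 without the filter and 1 to 178 with a library left out (1 without FFA2 fl/fl replicate 1). The median log2 fold change of all genes was 0.08 with DESeq2 and without the filter. Leaving out a library gave 3 to 5 members higher and 1 to 2 lower without overlap: Il1b joined without FFA2 fl/fl replicate 1 or Adipoq-F2-KO replicate 1, Il1r1 without FFA2 fl/fl replicate 3 or Adipoq-F2-KO replicate 1, Il1a without FFA2 fl/fl replicate 3 or Adipoq-F2-KO replicate 4, and Il1rl1 without FFA2 fl/fl replicate 2 or Adipoq-F2-KO replicate 4. These leave-one-out counts were added after seeing the data. Replicate numbers did not pair the samples (correlations of 0.03, -0.02 and -0.02), and the block gave 224 calls and 0 members. A pseudocount of 0.5 or 4 changed no call among the 4 ratios. The cause of these changes was not tested beyond the fewer samples or other genes each fit holds. With 10 to 120 counts per library for Il1a, Il1r2, Il33 and Il1rl1, small differences were not detectable at this depth.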
